A study of Gallus gallus with 20 samples.

Results

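CR1 (chicken repeat 1) is the main family of LINE retrotransposons in birds, and its consensus sequences formed 37 rows among the 79570 rows of an RNA-seq table of adult chicken kidney. The rows were chosen by name, as every row whose name starts with CR1. Gene rows start with an accession and were not taken, so the complement receptor-like gene CR1L, at 20.7 TPM, is not a member. The name rule used no measured value, although it was set with earlier results of these data known. The table gives, for each row, the estimated reads and the TPM, a level per length that is scaled so that all rows add up to a fixed total.

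A LINE moves through an RNA copy of itself, which is both the messenger for its proteins and the template for reverse transcription at a new site in the genome. Copying starts at the 3′ end of the RNA and often stops early, so most CR1 copies in a bird genome hold only the 3′ part. Many such copies lie within introns and untranslated parts of other genes, and a read from one of them can be assigned to a CR1 row without any CR1 element having been transcribed from its own promoter. A consensus row therefore gathers reads from many places, and its level is not that of a single element.

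The series covers chicken (Gallus gallus) kidney and testis in 20 samples, of which 19 are small RNA libraries that were not analysed here. All values come from 1 total RNA library of adult kidney with 21832272 estimated reads. The labels give it no sex, no strain and no count of animals, and the library kit is named as TruSeq. With 1 library there is no replicate error and no test between samples. Intervals are 95% intervals that cover counting error only. Without molecular identifiers, reads may repeat the same molecule.

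The tissue label was checked against marker genes. All 9 measured kidney markers, of 10 listed, had at least 1 TPM and 3 reads, with a median of 250.5 TPM. The 4 red blood cell markers lay between 37.2 and 486 TPM. Of 6 listed germ cell markers only 3 had a row. Of these 3, 2 were detected and the highest was SYCP3 at 6.04 TPM. Of 4 adrenal markers 2 were detected, the highest CYP17A1 at 4.68 TPM, while 51.4% of all 19650 genes were detected by the same rule. The part of these other cells in the CR1 reads was not tested.

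The CR1 rows drew 9766 reads, 0.0447% of the library (0.0438 to 0.0456) and 35.7% of the reads on the 258 repeat rows (35.2 to 36.3). Their summed level was 322 TPM. Reads were assigned to 21 of the 37 rows, and 19 rows (51.4%) were detected, meaning that they had at least 1 TPM and at least 3 reads. By the same rule 28.5% of all rows, 32.7% of the transcript rows of named genes and 19.5% of the other 221 repeat rows were detected. The share was 29.8% of the other repeat rows of 500 bases or more and 49.4% of the 79 LTR rows. The CR1 share lay close to the LTR share, but it pools unlike names. The 15 names that end in a taxon suffix drew no reads, and 19 of the other 22 were detected. This split was made after the values were seen. Over all 37 rows the median was 1.26 TPM with quartiles of 0 and 6.81 TPM, beside a median of 1.01 TPM over the LTR rows. The median was 1.21 TPM over 19650 genes with their transcripts summed, and 0.100 TPM over single transcript rows of named genes.

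**Figure D1:**
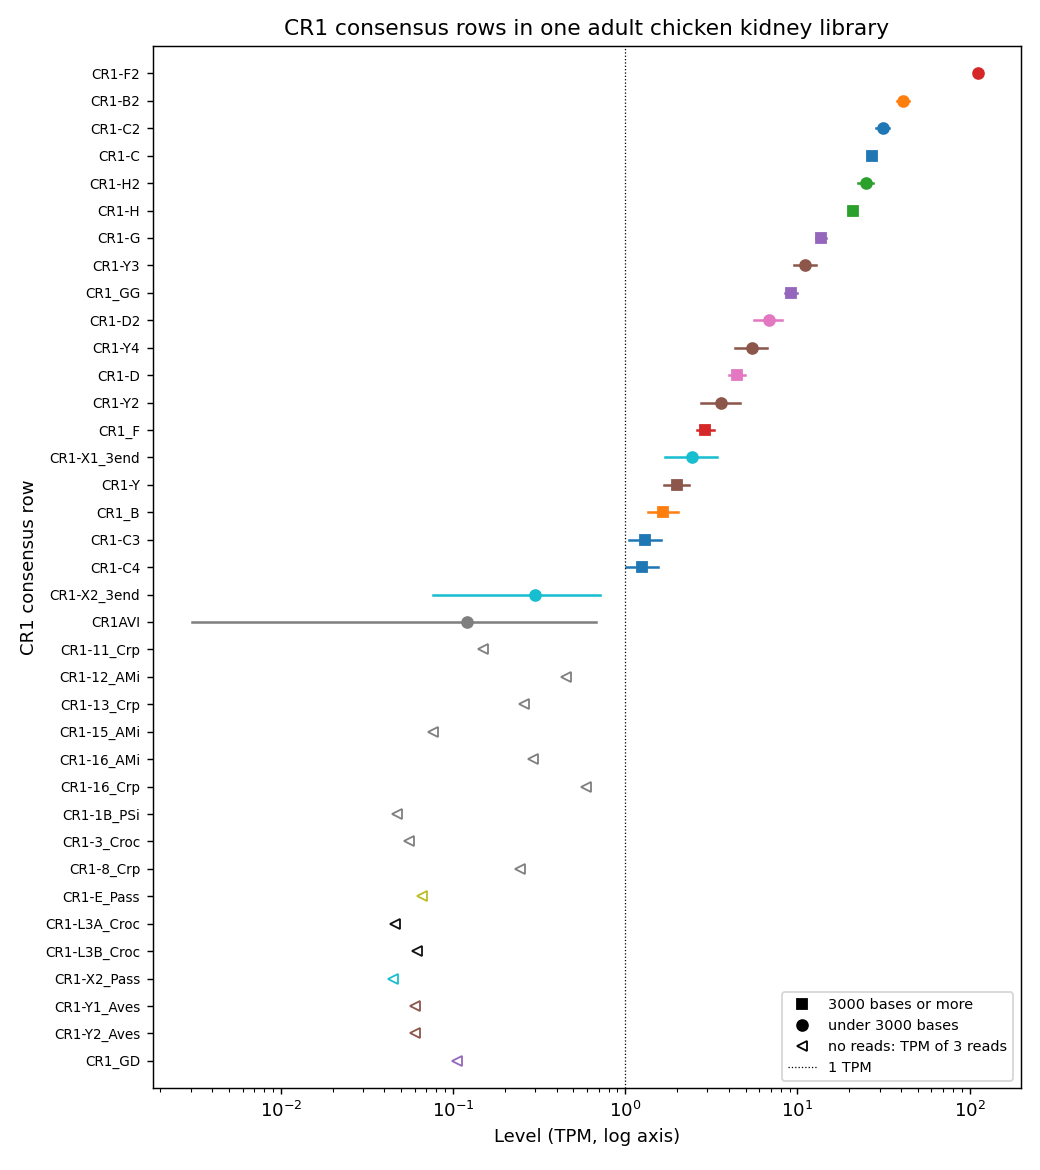
Level of each CR1 consensus row in TPM on a log axis, with squares for rows of 3000 bases or more, circles for shorter rows, and colours for the letter in the name. Lines are 95% counting intervals, and open triangles mark the TPM that 3 reads would give in rows without reads. The 19 detected rows run from CR1-C4 at 1.26 TPM to CR1-F2 at 111 TPM.

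CR1-F2, a consensus of 1217 bases, stood highest. It drew 1791.7 reads and reached 111 TPM (106 to 116), above 97.2% of genes. The next row, CR1-B2, drew 670.4 reads and stood at 41.0 TPM (37.9 to 44.1), 2.71-fold lower than CR1-F2 (2.48 to 2.97). CR1-C2 followed with 505 reads at 31.2 TPM (28.5 to 34.1). These leading rows are all short, between 1217 and 1233 bases.

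The row with the most reads was the long consensus CR1-C, of 4543 bases. It drew 1854 reads and stood at 27.0 TPM (25.8 to 28.2). Its reads were 1.03 times those of CR1-F2 (0.969 to 1.10), so the order of this pair by reads was not settled at this depth, while in TPM CR1-F2 stood 4.12-fold higher (3.86 to 4.40). CR1-H, of 4812 bases, drew 1526 reads and stood at 20.9 TPM (19.9 to 22.0). CR1-C, CR1-F2 and CR1-H together held 53.0% of all CR1 reads (52.0 to 53.9), and the 5 rows with the most reads held 68.8%.

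CR1-H2 stood between CR1-C and CR1-H at 24.95 TPM. Below CR1-H, CR1-G stood at 13.7 TPM and CR1-Y3 at 11.1 TPM, which brought the rows at 10 TPM or more to 8. Another 11 detected rows lay under 10 TPM. CR1_GG stood at 9.19 TPM, CR1-D2 at 6.81 TPM, CR1-Y4 at 5.41 TPM and CR1-D at 4.45 TPM. CR1-Y2, CR1_F and CR1-X1_3end lay at 3.59, 2.92 and 2.43 TPM, and CR1-Y and CR1_B at 2.00 and 1.66 TPM. The lowest detected rows were CR1-C3 at 1.31 TPM (1.05 to 1.61) and CR1-C4 at 1.26 TPM (1.01 to 1.56).

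By counting error alone, the order was resolved mainly in its upper part. This error leaves out the division of reads among related rows and the choice of length, so the order there is not settled. Of 19 pairs of neighbours among the 20 rows with at least 3 reads, 9 differed by more than counting error and 10 did not. Down to CR1-D2, the tenth row, the single pair of neighbours within counting error was CR1-C and CR1-H2, with a ratio of 1.08 (0.970 to 1.21). From CR1-D2 down to CR1-C4, no row could be told from the next. CR1-X2_3end, from 4.26 reads, stood 4.22-fold below CR1-C4 (1.70 to 16.9) at 0.298 TPM, and CR1AVI, of 721 bases, held 1 read.

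Of the 16 rows without reads, 15 had names that end in a taxon suffix. These 15 names end in 1 of 6 suffixes (Aves, Pass, Croc, AMi, Crp and PSi). Of the other 22 names, 21 drew reads and 19 were detected. The exception, CR1_GD of 1985 bases, drew no read, and 3 reads on it would equal 0.106 TPM. In repeat libraries Aves stands for birds and Croc for crocodilians. CR1_GG, which drew 634 reads, was not counted among the taxon suffixes, although GG may be a code for chicken.

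Rows without reads came in both sizes. The suffix rows ran from 520 to 4422 bases, with 8 rows of 3000 bases or more and 7 shorter ones, and 3 reads on them would equal between 0.0449 and 0.589 TPM, depending on length. CR1-Y1_Aves and CR1-Y2_Aves, of 3339 bases each, drew no reads, while CR1-Y, CR1-Y2, CR1-Y3 and CR1-Y4 drew 459 reads together. CR1-X2_Pass had none either, but CR1-X2_3end had only 4.26 reads and was itself not detected. The only row of letter E, CR1-E_Pass, and both rows of letter L, CR1-L3A_Croc and CR1-L3B_Croc, were at 0. A count of 0 on these rows covers reads that Salmon did not give to a related row, since reads that match several rows are divided among them.

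Grouped by the first letter after CR1 in the name, C led in reads, F in summed TPM and H in reads per kilobase. The 4 C rows held 26.0% of CR1 reads (25.1 to 26.8), the 2 F rows 21.3% (20.5 to 22.2), the 2 H rows 19.8% (19.0 to 20.6) and the 3 G rows 15.5% (14.8 to 16.2). The B, Y and D rows held 7.91%, 4.70% and 4.36%, and the X rows 0.399%. Of summed CR1 TPM, F held 35.4%, C 18.8%, H 14.2% and B 13.2%, while G fell to 7.11%. Pooled over the rows of a letter, H held 342.5 reads per kilobase of effective length, F 284.3, C 180.8, B 157.1 and G 148.5. The lead of C in reads rests on the row CR1-C: without it, C held 8.61% and F led with 26.3%. The lead of F in TPM rests on CR1-F2, which alone held 34.5% of summed CR1 TPM, while CR1_F held 0.907%. CR1_GG and CR1_GD were counted under G by this rule, although GG may be a species code and not a subfamily. G held 9.004% of CR1 reads when they were put aside, a grouping chosen after their values were seen.

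**Figure D2:**
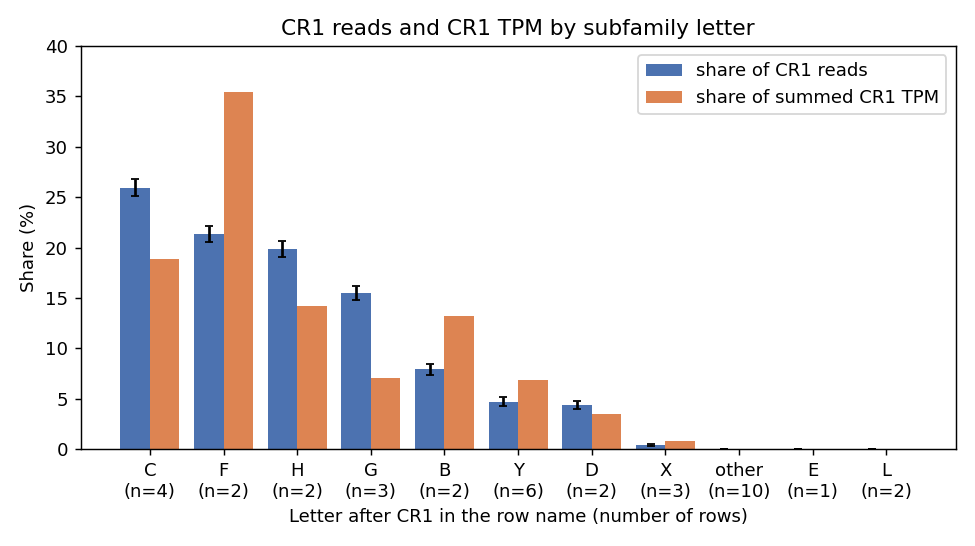
Share of CR1 reads (blue, with 95% counting intervals) and of summed CR1 TPM (orange) for each letter after CR1 in the row name, with the number of rows. C leads in reads at 26.0%, and F leads in TPM at 35.4%.

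The letters differed in how evenly their rows shared the signal. The H rows lay close together, at 24.95 and 20.9 TPM, and the D rows stood at 6.81 and 4.45 TPM. Among the C rows, CR1-C stood 20.6-fold above CR1-C3 (16.7 to 25.7) and 21.4-fold above CR1-C4 (17.2 to 26.9), although the 3 consensus lengths lie between 4511 and 4543 bases. CR1-C3 and CR1-C4 were within counting error of each other, with a ratio of 1.04 (0.765 to 1.41). CR1-G stood 1.49-fold above CR1_GG (1.35 to 1.66). Of the short Y rows, CR1-Y3 stood 2.04-fold above CR1-Y4 (1.57 to 2.67), and CR1-Y4 1.51-fold above CR1-Y2 (1.06 to 2.13).

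Detected rows fell into separate length classes, from 1100 to 1239 bases and from 4081 to 6509 bases. A limit of 3000 bases, taken here to divide short from long rows, therefore cut through no detected row. Of the 18 long rows 10 were detected (55.6%), and of the 19 short rows 9 (47.4%). Among names without a taxon suffix, all 10 long rows and 9 of 12 short rows were detected. The long rows held 60.6% of CR1 reads (59.6 to 61.5) but 26.2% of CR1 TPM.

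Rows of both sizes were listed for 8 letters, and in 7 of them the short rows had more reads per kilobase of effective length than the long ones. The exception was G, where the short row CR1_GD drew no reads and the long rows held 180.0 reads per kilobase. In X the only long row, CR1-X2_Pass, drew none, like all 15 rows with a taxon suffix, and the short rows held 21.6. In the other 6 letters (B, C, D, F, H and Y) both sizes drew reads. By effective length, all 8 short rows stood above the long row of the plain letter by more than counting error. The size of the gap differed widely. CR1-C2 stood 1.16-fold above CR1-C (1.05 to 1.28), CR1-H2 1.19-fold above CR1-H (1.07 to 1.33) and CR1-D2 1.53-fold above CR1-D (1.22 to 1.90). With annotated length the C and H gaps nearly closed. CR1-C2 then stood at 46.2 TPM against 45.6 TPM for CR1-C, and CR1-H2 at 37.0 TPM against 35.4 TPM for CR1-H. No interval was computed for the ratios with annotated length. CR1-Y2, CR1-Y4 and CR1-Y3 stood 1.80-fold, 2.71-fold and 5.54-fold above CR1-Y.

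The widest gaps were those of F and B. CR1-F2 stood 38.0-fold above CR1_F (33.6 to 43.2), and CR1-B2 24.7-fold above CR1_B (20.0 to 30.7). In both cases the long name joins its letter to CR1 with the sign _ and the short name with a hyphen, and CR1_F, of 6509 bases, is the longest CR1 row. Whether these long rows describe the same subfamily as the short rows is not given in the table. Reads, unlike levels, were higher on the long row in 5 of the 8 pairs. CR1-C2, CR1-D2 and CR1-H2 had 0.272, 0.349 and 0.269 times the reads of the long rows, and CR1-Y2 and CR1-Y4 had 0.423 and 0.638 times those of CR1-Y. CR1-Y3, CR1-F2 and CR1-B2 had 1.31, 6.14 and 6.57 times the reads of theirs.

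**Figure D3:**
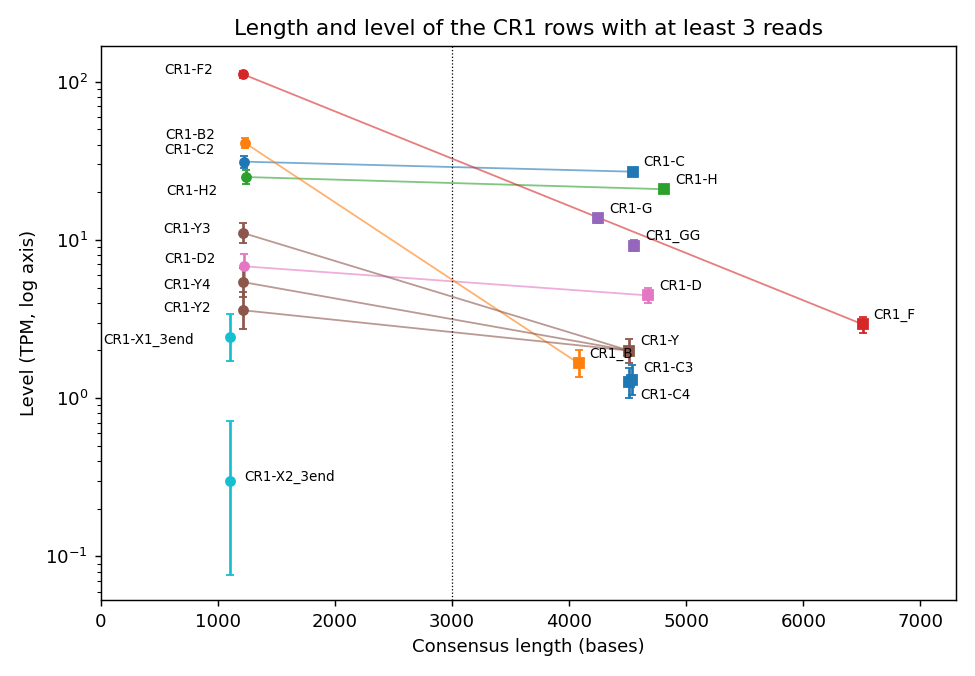
Consensus length in bases against level in TPM (log axis) for the 20 CR1 rows with at least 3 reads, with 95% counting intervals and lines joining each short row to the long row of the plain letter. The lines of C and H are nearly flat, at 1.16-fold and 1.19-fold, while those of F and B span 38.0-fold and 24.7-fold.

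Pooled over all rows, the short rows held 203 reads per kilobase and the long rows 81.0, a ratio of short to long of 2.51 (2.41 to 2.61). Among names without a taxon suffix the ratio was 2.38 (2.29 to 2.48), from 12 short and 10 long rows. With long rows taken from 4000 bases, the ratio of long to short rose from 0.399 to 0.927. This limit moved only rows without reads to the short class. As a ratio of the median TPM of all rows, long to short reversed to 4.31. Among names without a taxon suffix it did not reverse, with medians of 3.69 TPM for the long rows and 6.11 TPM for the short rows. The pooled excess of the short rows rests on CR1-F2 and CR1-B2, a pair singled out after its values were seen. Without this pair the ratio among names without a taxon suffix was 1.03 (0.972 to 1.09). The long rows CR1_F and CR1_B, at 46.3 and 26.3 reads per kilobase, stayed in this ratio and lowered the density of the long class. Across the 20 rows with at least 3 reads, length and TPM had a Spearman rho of 0.0195, given as a description since the rows share a library and divide reads among themselves. Length and reads had a rho of 0.496.

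Levels per length also depend on how the reads were assigned. Salmon, the program that assigned the reads, sets the effective length by subtracting 198.1 to 198.6 bases from each CR1 row, which left 83.7% of the length of CR1-F2 and 95.6% of that of CR1-C. Reads were also divided among rows: 19 of the 20 CR1 rows with at least 3 reads held a number of reads that was not whole, the exception being CR1-C3 with 90. The background for this was 64.5% over all rows with at least 3 reads and 73.3% over the other repeat rows. The division of reads between related CR1 rows, genes and assembled transcripts adds an error that the intervals leave out.

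Set among the repeats, CR1-F2 had the highest TPM of all 258 rows. It stood 1.16-fold (1.11 to 1.22) above RSV_I, an endogenous retrovirus row at 95.6 TPM that covers the part between the terminal repeats, although it had 0.175 times its reads (0.166 to 0.184). GGLTR4B at 68.7 TPM and RSV_LTR at 58.1 TPM came next, both from rows of 333 bases or less. Of the 10 repeat rows with the highest TPM, 4 were CR1 rows, and of the highest 15, 5 were. CR1 rows made up 37 of the 258 repeat rows. Among rows with at least 3 reads the median was 6.11 TPM for CR1 (20 rows) and 3.69 TPM for LTR elements (54 rows), a description of these rows, since the filter removed the low ones in both.

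LINE rows were recognised by names that start with CR1 or L2- or end in LINE, and among these only CR1 rows had reads. Repeat rows with other names were not checked for LINE elements. The other 15 LINE rows, 5 of them of the L2 family and 10 numbered fragments, drew none, although 9 of these 15 rows are shorter than 300 bases and had little length to draw reads from. A satellite row named Sat-CR1_GG, of 770 bases, which is no member by its name, drew 1 read.

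**Figure D4:**
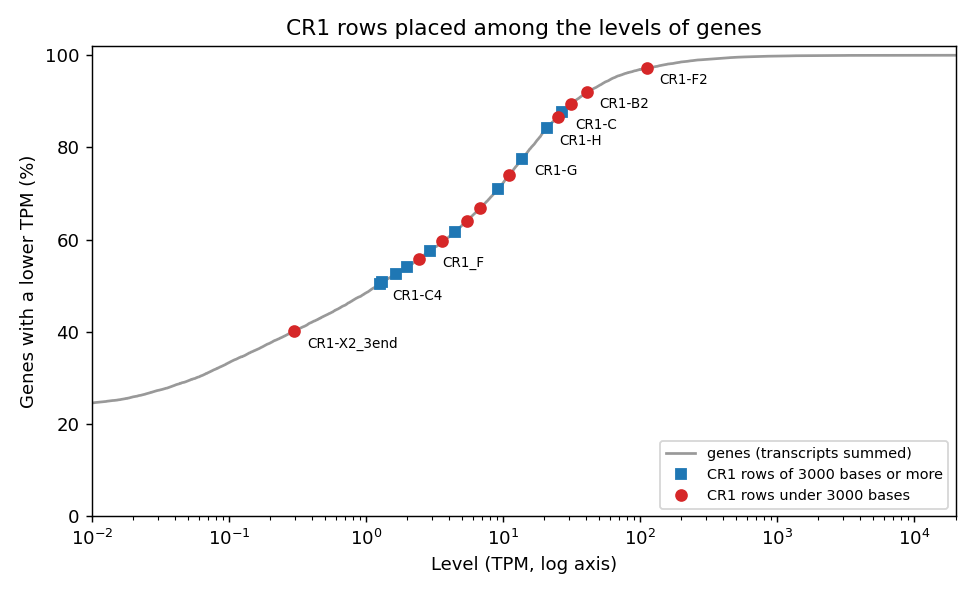
Share of genes with a lower TPM (vertical axis, %) at each level in TPM (log axis), with the CR1 rows of at least 3 reads placed on the curve of the genes. CR1-F2 lies above 97.2% of genes, CR1-C above 87.6% and CR1-C4 above 50.4%.

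Genes that act on LINE elements were measured in the same library. The roles given are known from mammals, where they were studied on the L1 element. Of 12 genes listed as restricting LINE elements or their RNA, 9 had a row and all 9 were detected, with a median of 7.48 TPM, above 68.1% of genes, while 51.4% of all genes were detected. UPF1, a helicase of RNA decay that binds the LINE RNA, stood at 38.7 TPM (37.5 to 40.03). HMCES, a protein that shields abasic DNA sites and whose place on this list is the least certain, stood at 17.4 TPM, and the RNA-editing enzyme ADAR at 12.4 TPM. The lowest was SAMHD1, which depletes the nucleotides needed for reverse transcription, at 3.66 TPM (3.17 to 4.196). TREX1 was matched through a RefSeq transcript whose row is named ATRIP.

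Of 16 listed chromatin silencers, 11 had a row and were detected, with a median of 6.55 TPM, above 66.4% of genes. By the same rule 51.4% of all genes were detected. The corepressor TRIM28, matched through a RefSeq transcript whose row is named TRIM1BL, stood at 27.8 TPM. The histone methyltransferase EHMT1 stood at 18.9 TPM, and the DNA methyltransferases DNMT1 and DNMT3A at 17.5 and 14.96 TPM. The lowest was PPHLN1, a subunit of the HUSH silencing complex, at 1.87 TPM (1.51 to 2.30).

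Of 8 listed genes whose proteins bind the LINE ribonucleoprotein, 6 had a row and were detected, beside 51.4% of all genes. Their median RNA level was 39.5 TPM, above 91.7% of genes. The poly(A)-binding protein PABPC1 stood at 265 TPM, the histone chaperone NAP1L1 at 68.7 TPM, nucleolin (NCL) at 50.6 TPM and the topoisomerase TOP1 at 28.4 TPM. The lowest was PABPC4, another poly(A)-binding protein, at 4.2004 TPM. CR1 RNA lacks the poly(A) tail of mammalian L1, so a role of PABPC1 in CR1 biology is not implied by its place on this list. All these genes are also used by cells for other purposes, and with 1 library no relation between them and the CR1 rows could be measured.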

How the data were processed

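Total RNA of 1 adult kidney sample was sequenced. Reads were assigned with Salmon on galGal6, per the submitters' processing notes. Its version, transcript set and strand setting are not given in the sources used. In the deposited table, TPM values share 1 scale over all rows. The deposited estimated counts hold shared reads divided among rows, and they were rounded to whole numbers for intervals.

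The values computed here are exact Poisson intervals for rows and genes, Clopper-Pearson intervals for shares and conditional binomial intervals for ratios, at 95%. Their code was checked on simulated independent counts. That check did not cover reads divided among related rows. A row counted as detected at 1 TPM with 3 reads, and 3 reads set the limit of a row at 0. Reads counted as whole within 0.0005. Gene levels are sums of TPM over transcripts. For listed genes without a row of that name, a RefSeq transcript of the gene was sought in the table through the GRCg7b annotation, used for names only. Genes still without a row were not analysed here. Python 3.11.15, numpy 2.4.6, pandas 2.3.3 and scipy 1.17.1 were used.

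The members and lists were chosen with earlier results of these data known. All CR1 rows could be named, and, beside these, the 3 other repeat rows with the highest TPM and the 4 genes with the highest TPM of each list. A gene that this rule names is not reported here. SAMHD1, PPHLN1, PABPC4, TREX1 and Sat-CR1_GG were named outside this rule, after their values were seen. CR1L was also named outside it, as a gene that the name rule leaves out. SYCP3 and CYP17A1 were named as the highest of their marker lists. Alternatives changed the length, the filters and the rows included. No consensus sequence was in the files used here, so none is shown.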

Additional observations from a re-analysis of the deposited data

How the results depend on the processing

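No test was run. Depth limits the counting intervals, the detection calls and the limits of rows at 0. How reads were divided among related rows could not be varied. No paired analysis was possible because only 1 sample has a file here. With TPM in place of reads, the CR1 share was 32.1% of repeats and 0.0322% of the library, and the share of letter C 18.8%. Without CR1-C, the row with the most reads, the CR1 share of repeat reads was 31.1%, the share of C 8.61% and the long to short density ratio 0.291, beside 0.399 as reported. Among long rows alone, C held 34.3%. The number of detected rows stayed between 15 and 19 under all 5 alternatives tried. The alternative that kept only names without a taxon suffix could not change it, since it dropped only rows without reads.

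The CR1 median was 6.11 TPM over rows with at least 3 reads, 2.13 TPM with annotated length and, chosen after seeing the data, 4.93 TPM over names without a taxon suffix. The long to short ratio was 0.335 with long rows from 2000 bases and 0.927 from 4000 bases. These limits moved only rows without reads between the size classes. The ratio was 0.456 with annotated length and 0.706 without CR1-F2. It reversed to 4.31 as a ratio of median TPM, where 8 of 18 long and 8 of 19 short rows without reads set the medians, at 1.28 and 0.298 TPM. With settings chosen after seeing the data it was 0.341 over rows with at least 3 reads, 0.420 over names without a suffix, 0.326 over the 8 letters with both sizes and 0.986 without CR1-F2 and CR1-B2. CR1-F2 stood at 164 TPM with annotated length and at 172 TPM without rows shorter than 300 bases. These settings raised every CR1 row with reads, the first by 1.28-fold to 1.71-fold and the second by 1.55-fold, and the first kept their order by TPM.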
